A study of Homo sapiens with 8 samples.

Results

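Mi2-only regions were stretches of the genome where chromatin immunoprecipitation followed by sequencing (ChIP-seq) gave a peak for Mi2 and none for any of the other 6 proteins mapped in the series. All libraries came from the established cell line 697, which is derived from a human pre-B leukaemia. Peaks of all 7 lists that shared at least 1 bp were merged into regions, and a region was kept when Mi2 was its only list. This left 4402 of 74123 regions, each holding exactly 1 of the 10303 Mi2 peaks. The Mi2-only regions were set beside 5900 regions where Mi2 lay with at least 1 other protein, and beside 4233 MTA2-only and 2473 HDAC2-only regions, chosen by the same rule with the list exchanged.

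The cells were grown in suspension with no treatment or genetic change named in the labels, and gave 1 library each for Mi2, MTA2, HDAC2, IKAROS, AIOLOS, OCAB and OCT2, plus 1 input library of genomic DNA with no antibody. The Mi2 library held 18.5 M tags, within a range of 10.9 M (HDAC2) to 23.4 M (IKAROS), and a Mi2 peak held 12 to 559 tags. With 1 library per antibody and 1 cell line there was no replicate check. No p-value between proteins was computed, and the 95% intervals of shares (Wilson) and of medians (binomial order statistics) cover counting error only.

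Mi2 is the ATP-driven nucleosome remodeller of NuRD, a complex that joins remodelling to histone deacetylation. MTA2 is a scaffold subunit of NuRD and HDAC2 is one of its deacetylases, so these lists mark other subunits of the same complex. IKAROS and AIOLOS are zinc-finger transcription factors of lymphocytes that are known to bind NuRD, OCT2 is an octamer-binding transcription factor, and OCAB is its B-cell coactivator. Remodellers of the Mi2 family are also known in assemblies other than NuRD.

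Of the 7 proteins, Mi2 had the largest share of regions to itself. Mi2-only regions made up 42.7% of the 10302 Mi2 regions (41.8 to 43.7). Among the other NuRD subunits the same share was 14.7% for MTA2 (14.3 to 15.1) and 15.3% for HDAC2 (14.8 to 15.9). IKAROS was alone in 30.3% of its regions (29.9 to 30.7) and AIOLOS in 9.57% (9.28 to 9.87). OCAB was alone in 27.2% (26.0 to 28.6) and OCT2 in 10.1% (9.43 to 10.7). Over all 74123 regions, 44.7% held 1 list alone, a figure that the longest list, IKAROS, weighs on most. Because the rule itself counts lists, these shares describe the choice of regions and test nothing.

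The order depended on how many peaks of each list were used. With the 2000 highest peaks of each list, a setting added after the data were seen for the other proteins, 60.9% of Mi2 regions were Mi2-only (58.7 to 63.0), while 65.7% of OCAB regions held OCAB alone (63.5 to 67.7), so Mi2 then came second. MTA2 stood at 23.5% (21.7 to 25.4) and HDAC2 at 22.8% (21.0 to 24.7) in that setting, both below Mi2. With at least 8-fold enrichment over input in every list, the shares were 52.0% for Mi2 and 35.3% for OCAB, and Mi2 was again the highest of the 7. At a p over input of at most 1e-10 in every list, 45.7% of Mi2 regions were Mi2-only (44.7 to 46.6), 16.3% of MTA2 regions MTA2-only and 9.15% of HDAC2 regions HDAC2-only.

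**Figure D1:**
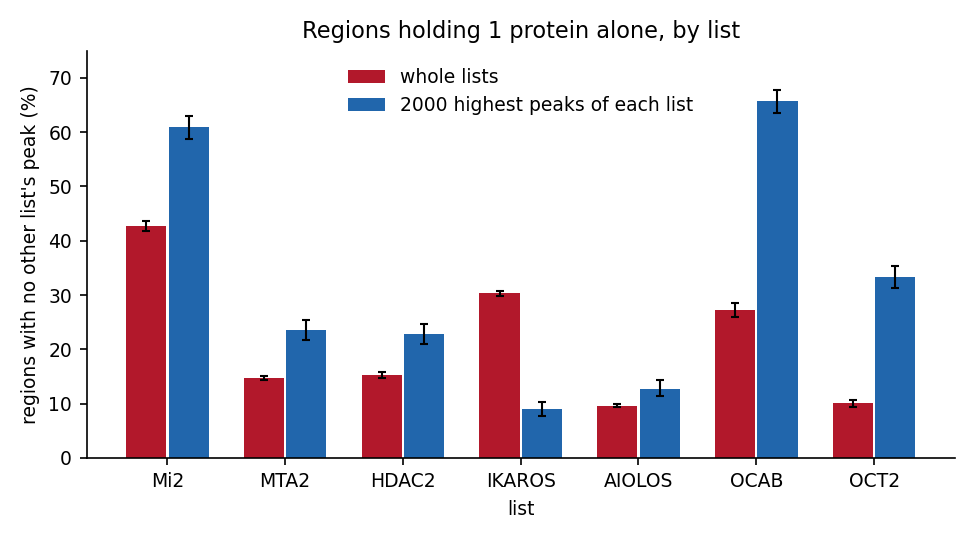
Share of each list's merged regions (%, y axis) that held no peak of another list, for the 7 lists (x axis); red bars use whole lists, blue bars the 2000 highest peaks of each list, and black lines are 95% Wilson intervals. Mi2 has the highest red bar, 42.7%, and the second highest blue bar, 60.9%, after OCAB with 65.7%.

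When a Mi2 region held exactly 1 other protein, that protein was most often HDAC2 or IKAROS. Mi2 lay with HDAC2 and nothing else in 335 regions and with IKAROS and nothing else in 318. The counts were 152 for MTA2, 64 for AIOLOS, 37 for OCT2 and 36 for OCAB. Over all Mi2 regions, IKAROS was present in 47.7%, AIOLOS in 42.4%, MTA2 in 41.7%, HDAC2 in 34.5%, OCT2 in 19.2% and OCAB in 7.93%. The lists differ in length, and these counts and shares were not corrected for it. Of all 74123 regions, IKAROS was in 53933, AIOLOS in 38085, MTA2 in 28742, HDAC2 in 16122, OCT2 in 8127 and OCAB in 4438. The order of partners is therefore no measure of preference. HDAC2's place among single partners changed with the p limit. Its list reached a p over input of 9.5e-05, against 8.97e-11 for Mi2. At a limit of 1e-10 in all 7 lists, a setting chosen after the data were seen, Mi2 lay with IKAROS alone in 334 regions, with MTA2 alone in 195 and with HDAC2 alone in 118. That limit took the HDAC2 list from 16122 to 6674 regions. The HDAC2 library held 10.9 M tags, against 18.5 M for Mi2, and depth and threshold cannot be told apart here.

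Mi2-only peaks were lower than shared Mi2 peaks and stood further above input. Their median height, in tags per 10 M tags of the library, was 13 (quartiles 10.8 and 16.2), against 16.2 (13 and 20.5) for the 5901 shared Mi2 peaks, a ratio of 0.802. The input tags in the same intervals, scaled by the authors to the Mi2 library, had a median of 2.6 (quartiles 1.7 and 3.5) in Mi2-only peaks and 3.5 (2.6 and 5.2) in shared ones. The fold over input had a median of 9.95 in Mi2-only peaks (9.76 to 10.3) and 8.53 in shared peaks (8.42 to 8.73). A fold of at least 8 was reached by 69.9% of Mi2-only peaks (68.5 to 71.2) and by 56.1% of shared peaks (54.8 to 57.4). Height, input and fold all belong to the Mi2 list that chose the regions, so these values are a description without a test. The list held no peak under 4.01-fold over input, so low peaks could be listed only where input was low enough. Among Mi2 peaks under a height of 12, 1 had an input over 4, against 1326 of those above 20. The part of this limit in the lower input and higher fold was not tested.

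The direction of the fold depended on the background used. Against the tags around each peak instead of input, the median fold was 5.86 for Mi2-only peaks (5.78 to 5.94) and 6.14 for shared peaks (6.07 to 6.21), the reverse order. The lowest listed input value was 0.4, at which 4.98% of Mi2-only peaks (4.37 to 5.66) and 2.305% of shared peaks (1.95 to 2.72) sat. With at least 8-fold enrichment over input required in every list, the ratio of the median folds over input was 1.00, against 1.17 with the lists as deposited.

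Mi2-only peaks were also more compact. The focus ratio, the fraction of tags placed as a single centred binding site would place them, had a median of 0.744 in Mi2-only peaks (quartiles 0.678 and 0.81) and 0.700 in shared Mi2 peaks (0.634 and 0.769). This difference of 0.044 exceeded the same difference in the other NuRD lists, 0.006 for MTA2-only against shared MTA2 peaks and 0.014 for HDAC2. It was 0.022 for OCAB and 0.014 for OCT2, and -0.005 for IKAROS and -0.011 for AIOLOS. The clonal fold, HOMER's measure of repeated tag positions, had a median of 0.98 in both groups.

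**Figure D2:**
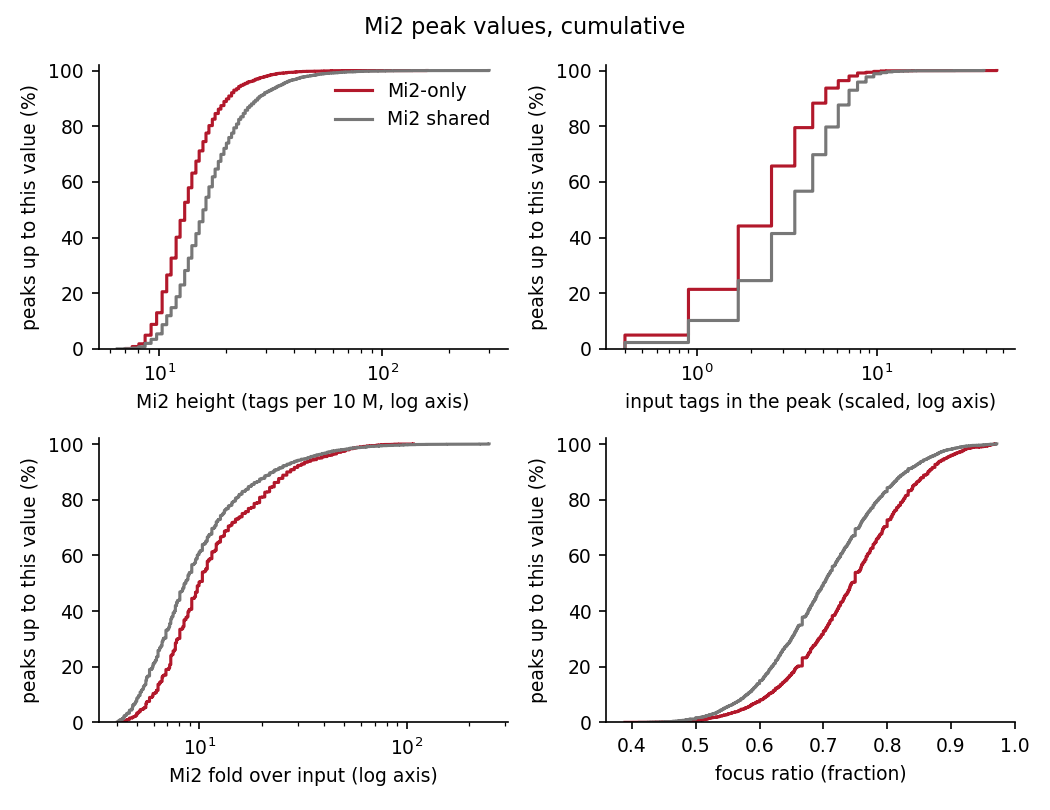
Cumulative share of Mi2 peaks (%, y axes) up to a given height, input tag number, fold over input and focus ratio (x axes), with red lines for the 4402 Mi2-only peaks and grey lines for the 5901 shared peaks. The red lines lie to the left for height and input and to the right for fold and focus ratio.

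Lower height in single-protein regions was seen in all 7 lists. The ratio of the median height of single-list peaks to that of shared peaks was lowest for IKAROS (0.408) and AIOLOS (0.598), and came to 0.637 for MTA2, 0.707 for OCT2, 0.748 for HDAC2 and 0.801 for OCAB. Mi2, at 0.802, and OCAB had the ratios nearest to 1. Input was lower in single-list peaks for each of the 7 proteins as well. The fold over input, by contrast, went different ways. The ratio was 1.17 for Mi2, 1.09 for MTA2, 1.16 for OCAB and 1.23 for OCT2, but 0.550 for IKAROS and 0.692 for AIOLOS. For HDAC2, the list with the loosest p limit, it was 0.937. The HDAC2 medians were 6.87 (6.72 to 7.33) and 7.33 (7.33 to 7.33), so these intervals meet.

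The Mi2-only share changed along the Mi2 list, most by height and by input. Among the lowest 10% of Mi2 peaks by height, 64.8% were Mi2-only (61.8 to 67.6), and among the highest 10% it was 19.3% (17.0 to 21.8). By input tags the share was 61.2% in the lowest 10% (58.2 to 64.1) and 17.7% in the highest (15.5 to 20.2). By focus ratio it ran the other way, with 29.1% in the lowest 10% (26.4 to 31.9) and 58.2% in the highest (55.2 to 61.2). By fold over input the share was 22.7% in the lowest 10% (20.2 to 25.4) and 51.9% in the highest (48.8 to 54.9), but it moved unevenly over the upper part, between 43.2% and 53.0%. By fold over the local background it differed least, at 51.0% in the lowest 10% (48.0 to 54.1) and 39.7% in the highest (36.7 to 42.7). A height of at least 30 was reached by 94 Mi2-only peaks, 2.14% of them (1.75 to 2.61), and by 468 shared peaks, 7.93% (7.27 to 8.65).

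**Figure D3:**
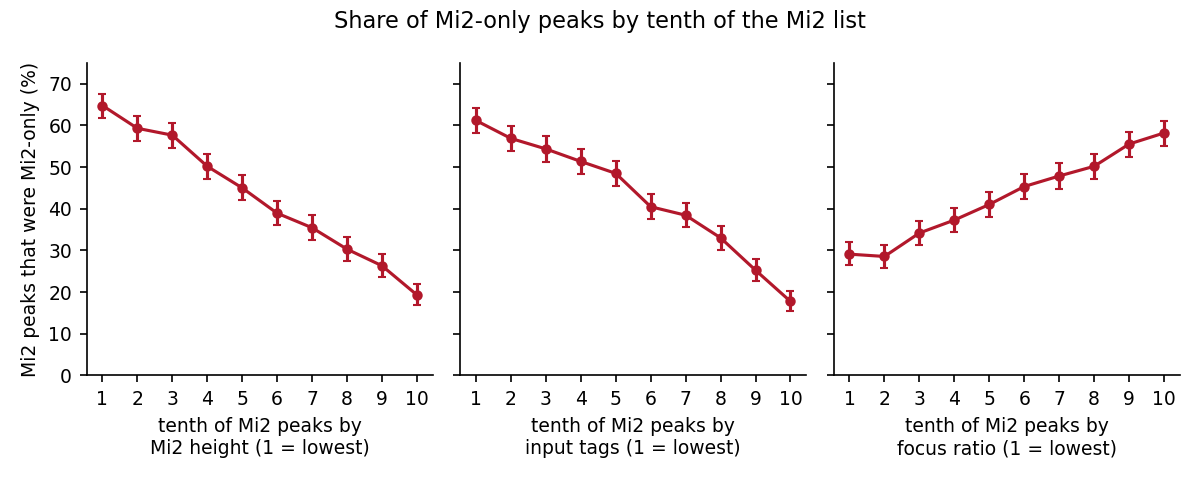
Share of Mi2 peaks that were Mi2-only (%, y axis) in 10 equal parts of the Mi2 list ordered by height, by input tags and by focus ratio (x axes, 1 is the lowest part; equal values were taken in genome order); bars are 95% Wilson intervals. The share drops from 64.8% to 19.3% over height and from 61.2% to 17.7% over input, and climbs from 29.1% to 58.2% over focus ratio.

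Height and input each went with the share when the other was held within a class. The classes were broad, with heights above 20 reaching 301.5, so neither measure was held fixed. Among peaks of height 16 to 20, 41.6% were Mi2-only where input was up to 2 tags (36.2 to 47.2), 38.6% where it was 2 to 4 (34.8 to 42.5) and 26.6% where it was over 4 (24.1 to 29.2). The intervals for up to 2 tags and for 2 to 4 tags overlap. Where input was up to 2 tags, the share was 64.1% for peaks under a height of 12 (62.0 to 66.3), 54.6% for 12 to 16 (51.4 to 57.8), 41.6% for 16 to 20 and 32.6% above 20 (27.0 to 38.8). Median height also stepped up with the number of other proteins in the region, at 13 with none, 14.6 with 1, 14.6 with 2, 15.1 with 3, 16.2 with 4, 17.3 with 5 and 19.5 with all 6.

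The highest Mi2-only peak stood far from the rest of the group. It lay on chromosome 9 at 35914193 to 35914539 (coordinates are hg19 throughout) with a height of 158.8 from 294 tags, and was the third highest of all Mi2 peaks. Its interval also held 46.2 input tags, the largest input value in the Mi2 list, so its fold over input was 6.37, below the Mi2-only median. Its nearest peak of another list, AIOLOS, was 9786 bp away.

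The next 9 by height ranged between 52.9 and 66.5, and their ranks in the Mi2 list ran from 39 to 86. Chromosome 13 at 30945237 to 30945583 had a height of 66.5 and a fold of 15.95 (listed to 2 decimals), with an OCAB peak 199 bp away. Chromosome 3 at 194047803 to 194048149 had a height of 64.8 and a fold of 13.8, and an MTA2 peak lay 521 bp away. The peak on chromosome 14 at 69263091 to 69263437 reached 60 with a fold of 18.2.

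On chromosome 20, 62361732 to 62362078 had a height of 59.4 and stood 15 bp from an HDAC2 peak. Chromosome 1, 145004693 to 145005039, had a height of 58.9, and an AIOLOS peak lay 61 bp off. On chromosome 2, 9920170 to 9920516 had a height of 53.5, with HDAC2 at 60 bp. These 3 high regions were thus Mi2-only by a margin of 61 bp or less.

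The others of the highest 10 were on chromosome 19 at 17640114 to 17640460 (height 55.1, fold 16.7), chromosome 17 at 21251049 to 21251395 (height 54.6, fold 6.44) and chromosome 16 at 27412799 to 27413145 (height 52.9, fold 28.1). MTA2 was the nearest other list of all 3, at 5804, 682 and 332 bp. In 8 of the highest 10, a peak of another list lay within 1 kb, against 30.7% of all Mi2-only regions.

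The 10 Mi2-only peaks with the highest fold over input were a different set. Each had the lowest listed input, 0.4, and a height of only 18.4 to 25.4, so their folds of 78.1 to 107.92 rest on an input at its floor. The first lay on chromosome 7 at 3621470 to 3621816, with 47 Mi2 tags, a height of 25.4 and an HDAC2 peak 82 bp away. Next came chromosome 17 at 67576783 to 67577129 (fold 91.9, IKAROS at 308 bp) and chromosome 3 at 123613064 to 123613410 (fold 89.6, AIOLOS at 9440 bp).

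Another 3 had 38 tags and a fold of 87.25: chromosome 1 at 9279026 to 9279372, chromosome 10 at 92069071 to 92069417 and chromosome 19 at 4645761 to 4646107. The one on chromosome 10 stood 19238 bp from its nearest other peak, the furthest of the 10. The rest were on chromosome 6 at 37547100 to 37547446 (fold 85.0), chromosome 11 at 29720486 to 29720832 (fold 80.4), chromosome 3 at 10514497 to 10514843 and chromosome X at 117668960 to 117669306 (fold 78.1 each). No region was in both groups of 10.

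Many Mi2-only regions lay close to other proteins without touching them. The median distance to the nearest peak of another list was 4613 bp (4140 to 5027), with quartiles of 608 and 15328 bp. Within 500 bp, 22.9% of Mi2-only regions had such a peak (21.7 to 24.2), within 1 kb 30.7% (29.4 to 32.1), within 10 kb 65.9% (64.5 to 67.3) and within 100 kb 97.8% (97.3 to 98.2). A single region, on an unplaced sequence, had no peak of another list on its sequence.

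They nevertheless stood further off than the single-list regions of the other NuRD subunits. The median distance was 2436 bp for MTA2-only regions (2164 to 2785) and 970.5 bp for HDAC2-only regions (850 to 1135), and 72.4% and 77.9% of these lay within 10 kb of another list. Distance excludes 0 by the rule in all 3 sets, and each set is measured to a different group of 6 lists, so the order is a description. At the common p limit of 1e-10 the medians were 4878 bp for Mi2-only (4439 to 5303), 2714 bp for MTA2-only and 663 bp for HDAC2-only regions. To the next region holding a protein other than Mi2, the median distance was 4608 bp (4140 to 5026) for Mi2-only regions and 4490 bp (4223 to 4769) for shared Mi2 regions, and these intervals overlap. The spread was wider for Mi2-only regions, of which 23.1% (21.8 to 24.3) had such a region within 500 bp and 65.9% (64.5 to 67.3) within 10 kb, against 20.02% (19.0 to 21.1) and 71.5% (70.3 to 72.6) of shared Mi2 regions.

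**Figure D4:**
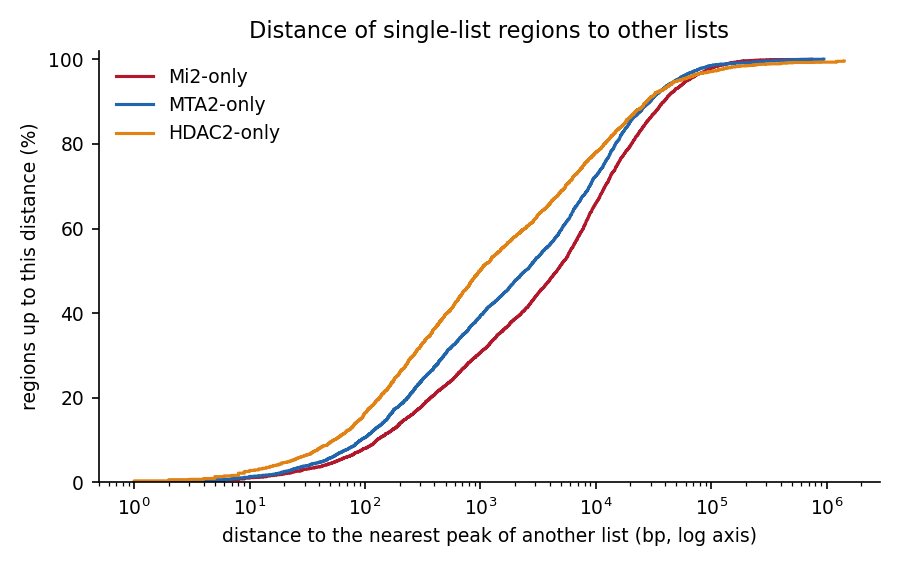
Cumulative share of single-list regions (%, y axis) by distance to the nearest peak of another list (bp, log x axis): red for 4402 Mi2-only, blue for 4233 MTA2-only and orange for 2473 HDAC2-only regions. At 10 kb the lines stand at 65.9%, 72.4% and 77.9%.

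By list, the nearest neighbour was most often IKAROS, which is also the longest list. IKAROS was nearest for 43.8% of Mi2-only regions (42.4 to 45.3) and supplies 36.1% of the peaks in the other 6 lists. HDAC2 was nearest for 14.7% (13.7 to 15.8) with 10.8% of those peaks, while MTA2 was nearest for 13.4% (12.4 to 14.4) with 19.2% and AIOLOS for 19.4% (18.3 to 20.6) with 25.5%. At the common p limit HDAC2 was nearest for 6.38% of Mi2-only regions (5.71 to 7.11) with 4.88% of the peaks. Within 500 bp of another list IKAROS was nearest for 34.8% (31.9 to 37.7), an interval that holds its 36.1% of the peaks, and for 45.9% (43.6 to 48.1) between 500 bp and 10 kb. Among the 1010 Mi2-only regions within 500 bp of another list, HDAC2 was nearest for 19.1% (16.8 to 21.6), and among the 1892 between 500 bp and 10 kb for 13.2% (11.7 to 14.8). Median distances were 5927 bp to IKAROS, 9674 bp to AIOLOS, 13928 bp to MTA2, 26405 bp to HDAC2, 62217 bp to OCT2 and 121990 bp to OCAB.

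Mi2-only regions differed among themselves along this distance. Those within 500 bp of another list had a median height of 15.1 (14.6 to 15.7), an input of 3.5 and a focus ratio of 0.712 (0.706 to 0.719). Those between 500 bp and 10 kb had a median height of 13, an input of 2.6 and a focus ratio of 0.750. The 1403 regions at 10 to 100 kb had a median height of 11.9 (11.9 to 12.4), an input of 1.7 and a focus ratio of 0.766. The median fold over input was 9.05 within 500 bp (8.73 to 9.18) and 10.7 at 10 to 100 kb (10.3 to 10.9). The height, fold and focus ratio of the nearest regions thus lay between those of shared Mi2 peaks and those of the more distant Mi2-only regions. The median input of the nearest regions was 3.5 (2.6 to 3.5), the same listed value as for shared peaks. Its interval reached the 2.6 of all Mi2-only peaks. The 97 regions that had no other protein within 100 kb had a median height of 11.3.

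The rule drew its line through a continuous range of spacing. The 3 Mi2-only regions nearest to another list began or ended on the base next to its peak: chromosome 1 at 25889382 to 25889728 beside HDAC2, chromosome 4 at 42333523 to 42333869 beside HDAC2, and chromosome 7 at 73681413 to 73681759 beside AIOLOS. Their heights were 14.0, 22.2 and 15.7. Just outside the rule, 3 merged regions shared 1 bp between Mi2 and another list: chromosome 8 at 140622824 to 140623466 with AIOLOS, chromosome 8 at 143821715 to 143822333 with IKAROS, and chromosome 16 at 57373583 to 57374179 with MTA2. Mi2 heights there were 35.7, 19.5 and 9.73. The region with AIOLOS held 2 lists other than Mi2, and those with IKAROS and MTA2 held 1 each. In all, 197 Mi2-only regions lay within 50 bp of another list (4.48%, median height 15.7), and 275 shared regions overlapped by less than 50 bp (4.67%, median height 14.6).

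Along the genome, Mi2-only regions were spread over every chromosome. Chromosomes 1 to 22 and X held 4398 of them, chromosome Y 3 and an unplaced sequence 1. Their density ranged from 0.303 per Mb on chromosome X to 3.66 per Mb on chromosome 19, against 1.56 per Mb over the autosomes, and shared Mi2 regions had their lowest and highest densities on the same chromosomes (0.381 and 5.80 per Mb). The share of Mi2 regions that were Mi2-only varied less, between 37.2% on chromosome 14 (31.8 to 42.9) and 48.2% on chromosome 18 (41.6 to 54.8). Over the 23 chromosomes, this share was lower where regions without a Mi2 peak were denser (Spearman rho -0.684, given as a description, since the points share their libraries).

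In bins of 1 Mb, the share was lower where the other lists were dense. Bins were classed, after the data were seen, by their regions that held another protein and no Mi2, so that shared Mi2 regions did not set the class. This does not remove the tie set by the rule, since denser peaks of other lists leave fewer Mi2 peaks without an overlap. The same holds for the comparison over chromosomes, and the part of overlap alone was not tested. With 0 to 10 such regions 46.1% of Mi2 regions were Mi2-only (42.5 to 49.8), and with 11 to 30 it was 46.2% (44.6 to 47.8), and these intervals overlap. The share was 41.7% with 31 to 60 (40.3 to 43.1) and 34.6% with over 60 (32.1 to 37.2). In number, however, Mi2-only regions grew with the other lists, at 0.377, 1.61, 2.76 and 3.55 per bin in these 4 classes, while shared Mi2 regions numbered 0.441, 1.87, 3.86 and 6.69. Of 1722 bins with a Mi2-only region, 280 held no shared Mi2 region and 1 held no region of any other list.

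A smaller share of Mi2-only regions than of shared Mi2 regions lay near chromosome ends. Within 5 Mb of the outermost peak on a chromosome lay 399 Mi2-only regions, 9.07% of 4398 (8.26 to 9.96), against 14.2% of shared Mi2 regions (13.3 to 15.1), 10.8% of HDAC2-only (9.59 to 12.05) and 19.8% of MTA2-only regions (18.7 to 21.1). Over all regions of these chromosomes the figure was 13.3%. The outermost peak need not mark the tip of a chromosome. On chromosome 13 the region starting at 30945237 lay only 1.13e+07 bp from it, so that end zone lay well inside the sequence. The part of such zones in these shares was not tested. The difference from shared Mi2 regions was -5.13 percentage points (Newcombe 95% interval -6.36 to -3.89), from MTA2-only regions -10.8 points (-12.2 to -9.29) and from HDAC2-only regions -1.69 points (-3.21 to -0.223). At the common p limit the shares were 9.19% for Mi2-only (8.40 to 10.1), 12.1% for HDAC2-only (9.70 to 14.9) and 19.6% for MTA2-only regions (18.5 to 20.8). The difference from HDAC2-only regions was then -2.89 points (-5.86 to -0.362) and from MTA2-only regions -10.5 points (-11.9 to -9.04). Each interval of a difference excludes 0 for counting error, but regions are not replicates and each protein had 1 library.

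**Figure D5:**
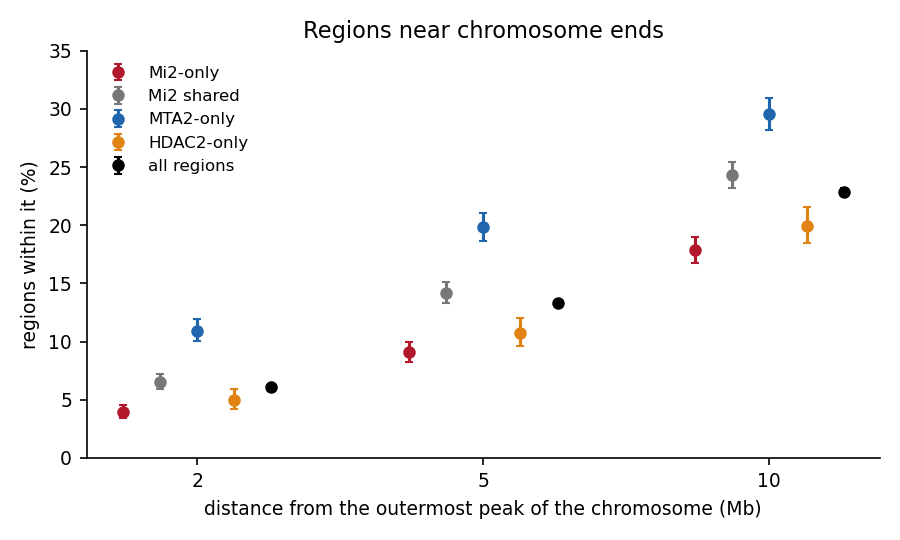
Share of regions (%, y axis) within 2, 5 and 10 Mb of the outermost peak of a chromosome (x axis) for Mi2-only (red), shared Mi2 (grey), MTA2-only (blue), HDAC2-only (orange) and all regions (black); bars are 95% Wilson intervals. Mi2-only regions have the lowest share at each distance, 9.07% at 5 Mb, and MTA2-only regions the highest, 19.8%.

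The other lists were dense at these ends, with 37.4 regions without Mi2 per Mb within 5 Mb of an end and 20.3 elsewhere. Mi2-only regions stood at 1.73 per Mb in the end zones and 1.47 per Mb elsewhere, and shared Mi2 regions at 3.64 and 1.86. Among Mi2 regions, 32.3% were Mi2-only in the end zones (29.7 to 34.9) and 44.2% elsewhere (43.1 to 45.2). In bins with up to 30 regions without Mi2 these shares were 38.8% (33.4 to 44.5) and 46.7% (45.2 to 48.3). In bins with 31 to 60 they were 32.7% (28.9 to 36.7) and 43.0% (41.4 to 44.5), and with over 60 they were 26.7% (22.5 to 31.4) and 37.8% (34.8 to 41.0). In the lower pair of 4 equal classes of Mi2 height, 7.78% (6.56 to 9.20) and 8.59% (7.17 to 10.3) of Mi2-only regions lay near an end, against 13.8% (11.8 to 16.1) and 12.8% (11.1 to 14.7) of shared regions. In the upper pair it was 10.1% (8.28 to 12.2) and 11.9% (9.57 to 14.7) of Mi2-only against 13.5% (11.9 to 15.2) and 15.9% (14.4 to 17.6) of shared regions. The Mi2-only share was thus the lower in all 4 classes. In the upper pair the separate intervals overlapped, which does not show that the shares were equal. No interval of the difference was computed by height class. The splits by density and by height were chosen after the data were seen, and the part of either in the lower share was not tested.

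About as many Mi2-only regions stood by themselves as in groups. The median distance to the next Mi2-only region was 107108 bp (100237 to 113442), and 0.909% had a neighbour of the same kind within 1 kb (0.668 to 1.23). When neighbours within 100 kb were joined, 2268 regions (51.6%) stood by themselves, 1082 formed pairs, 552 formed groups of 3, and 496 (11.3%) lay in 101 runs of 4 or more. MTA2-only regions had a median distance of 113580 bp (107321 to 122384) to their own kind, and the intervals overlap.

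The longest runs held 8 to 10 Mi2-only regions. On chromosome 11, 10 lay between 35796264 and 36214828, with Mi2 heights of 10.3 to 18.4 and a median of 13. That stretch held 1 shared Mi2 region among 29 regions of other proteins. Another 10 lay on chromosome 19 between 18110592 and 18402181, with heights up to 34, here beside 8 shared Mi2 regions. Chromosome 9, 131948326 to 132369647, held 9, with heights up to 36.2 and 4 shared Mi2 regions. Runs of 8 lay on chromosome 13, 20967501 to 21197491, and on chromosome 16, 17336186 to 17569395, with 1 and 2 shared Mi2 regions inside. The runs thus lay among regions of the other proteins, 17 to 39 of them in each.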

How the data were processed

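The authors deposited 1 peak list per antibody, each from 1 library with no pooling recorded. The build is hg19, and the submitters' processing notes name HOMER 4.9.1, Bowtie2 2.3.2.2 and CASAVA, in version 1.4 for the HDAC2 library and 1.8.2 for all others. Per the file headers, the signal column is tags per 10 M tags of the library, called height here; peak tags are deposited as a count for 5 lists and as tags scaled to input depth for IKAROS and MTA2. The deposited focus ratio is a fraction, the fold columns are ratios, the p-value columns are HOMER's Poisson values, and the authors' score column was not used for results. The Mi2 list ended at a p over input of 8.97e-11, HDAC2 at 9.5e-05 (its header gives a limit of 4-fold and 1.00e-04), and the sources used here give no limits for the other lists. Depth was read from tags over height, or, for IKAROS and MTA2, from the step between low heights. Amplified reads carry no molecular identifier, so intervals cover counting error only.

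Peaks were merged at 1 bp overlap. Distances run from region edge to peak edge, and chromosome ends are the outermost peaks of all lists. The most frequent peak width was 346 bp for Mi2, 318 bp for HDAC2, 274 bp for OCT2 and 272 bp for IKAROS. It was 266 bp for OCAB, 256 bp for AIOLOS and 250 bp for MTA2. The named regions are the 10 Mi2-only regions highest in height and the 10 highest in fold, the 3 nearest on each side of the rule and the 5 runs with most members. Members, lists and settings were chosen with earlier results of these data known. The gene annotation at hand is on another build, so no region was assigned to a gene and no sequence was read; promoter shares, GC content and motifs were not run. Merging, distances and intervals were tested on simulated data. Python 3.11.15, numpy 2.4.6, pandas 2.3.3, scipy 1.17.1 and matplotlib 3.10.9 were used.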

Additional observations from a re-analysis of the deposited data

How the results depend on the processing

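The count and share of Mi2-only regions, their height, fold and focus ratio against shared peaks, and their shares near other lists and near ends were recomputed under 15 settings of merging, thresholds and lists, and the 2 distance limits were varied further. The shares along the Mi2 list, the classes of distance and density, and the runs were not; with 1 library per antibody no library could be left out within a group. No paired analysis was possible because each protein had 1 library and no replicate numbers. Under every setting Mi2-only peaks stayed lower than shared Mi2 peaks (height ratio 0.790 to 0.917) and more compact (focus ratio higher by 0.027 to 0.0555). The ratio of median folds over input lay between 1.00 and 1.20, lowest with 8-fold required in every list. The count of 4402 stayed within 1.5 times under 13 of 15 settings and was 2681 with peaks up to 2000 bp apart merged and 1218 with the 2000 highest peaks of each list. With peaks up to 500 bp apart merged, 33.1% of Mi2 regions were Mi2-only, the height ratio was 0.790, and 55.7% lay within 10 kb of another list and 7.93% within 5 Mb of an end. At 2000 bp these were 26.7%, 0.790, 44.4% and 6.83%, and with sharing only by peak centres within 100 bp 62.1%, 0.833, 76.6% and 10.6%. With the 2000 highest peaks they were 60.9%, 0.917, 29.1% and 12.6%. The share of Mi2 regions that were Mi2-only was 45.7% at the common p limit of 1e-10, 52.0% at 8-fold in every list (height ratio 0.790, 59.96% within 10 kb) and 48.2% at 8-fold in the Mi2 list alone (0.790, 63.3%). Leaving out a list gave 44.5% without MTA2, 46.9% without HDAC2 (height ratio 0.844), 46.3% without IKAROS (58.3% within 10 kb) and 43.7% without AIOLOS, and 53.2% with MTA2 and HDAC2 as the only other lists (48.4% within 10 kb). A peak of another list lay within 1 kb of 30.7% and within 100 kb of 97.8% of Mi2-only regions; 3.93% lay within 2 Mb and 17.8% within 10 Mb of an end. Mi2-only regions had a lower share near ends than shared Mi2 regions under each of 6 settings tried after the data were seen, from 6.83% against 13.7% with peaks up to 2000 bp apart merged to 12.6% against 19.4% with the 2000 highest peaks. At the common p limit IKAROS replaced HDAC2 as the most frequent single partner of Mi2 (334 and 118 regions, against 318 and 335 with the lists as deposited). By construction, wider merging removed Mi2-only regions that close to another list, and a list left out was also left out of the distances. The limit of 1e-10 took the HDAC2 list from 16122 to 6674 regions. Beyond this, the causes of the shifts were not tested. At a median of 24 tags per Mi2-only peak and 2.6 input tags, single folds are coarse, and a protein below its list's threshold cannot be told apart from one that is not there.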
